A study of Mus musculus with 37 samples.

Results

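The genes described here are 9 kinases of the mitogen-activated protein (MAP) kinase cascades: the MAP kinases Mapk3, Mapk8, Mapk9 and Mapk14, the MAP2 kinases Map2k1, Map2k2, Map2k3 and Map2k4, and Mapkapk2, a kinase activated by the p38 MAP kinases. They were taken by name from the authors' list of translated open reading frames (ORFs). An ORF runs from its start codon to the first stop codon in the same frame. All 25 ORFs that carry one of these 9 names were kept, out of 22367 ORFs in 10418 gene families. The list was made from ribosome footprints, the RNA fragments that ribosomes shield from nuclease, in dendritic cells grown from the bone marrow of C57BL/6J mice aged 6 to 8 weeks. The labels name the same list for each of 37 libraries.

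Those libraries came from cells given lipopolysaccharide (LPS, a bacterial cell wall component) at 100 ng/mL for 0.5 to 12 h, mock-treated cells, or naive cells. Cycloheximide, which stops elongating ribosomes, was given at 100 ug/mL for 1 min to 16 LPS, 8 mock and 2 naive libraries. No inhibitor was given to 8 LPS libraries and 1 naive library, but the lysis buffer of all libraries held cycloheximide. Harringtonine (1 ug/mL, 5 min) and lactimidomycin (50 ug/mL, 30 min), which hold ribosomes near start codons, were given to 1 library each, and each of these mixed several LPS times. The list has no value per library, so its depth is unknown, no ORF has a replicate or an error, and LPS, mock and naive cells were not compared. Each value below is a position, a length or the authors' score of an ORF, a whole number from 500 to 991 whose scale is not given in the sources used here. Of 16 dendritic cell markers, 15 were listed, and Flt3 was not. Of the markers of other cells, 8 of 8 for neutrophils, 7 of 8 for macrophages or monocytes, 4 of 5 for fibroblasts, 3 of 5 for mast cells, 1 of 5 for B cells and 0 of 6 for T or NK cells were listed. The part of other cells in the list was not tested.

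In these cascades a MAP3 kinase phosphorylates a MAP2 kinase, which in turn phosphorylates a MAP kinase on a threonine and a tyrosine of its activation loop. Toll-like receptor 4, the LPS receptor, drives the ERK, JNK and p38 branches in dendritic cells and macrophages. The p38 target encoded by Mapkapk2 is known for raising the stability and translation of cytokine mRNAs such as that of Tnf.

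The 9 genes had 1 to 6 ORFs each, with a median of 3 against 2 over all families. The longest ORF of each gene had 347 to 427 residues (median 393). Over all families the median was 435 and the full span 2 to 7602. The 9 names matched a symbol of the RefSeq gene table, each on the same chromosome, and no ORF of another family overlapped their coding spans. Only Mapk14, Map2k1 and Map2k4 had a single ORF, 3 of 9 genes where 43.7% of all families had one. The other 6 genes had further starts, splice forms or short upstream ORFs. The 25 ORFs of all 9 genes included 9 longest ORFs and 4 other in-frame starts with the stop of the longest ORF. There were also 1 splice variant with its start and stop and 7 isoforms that share part of its codons. The last were 3 upstream ORFs and 1 ORF in another frame inside its span. Isoforms were 28.0% of the 25 and 3.99% of all ORFs, and splice variants 4.00% and 10.9%. Other in-frame starts were 16.0% and 15.2%, upstream ORFs 12.0% and 12.8%, and the last class 4.00% and 5.59%. Mapk8 alone had 3 of the 7 isoforms, and these shares are not read as a difference.

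**Figure D1:**
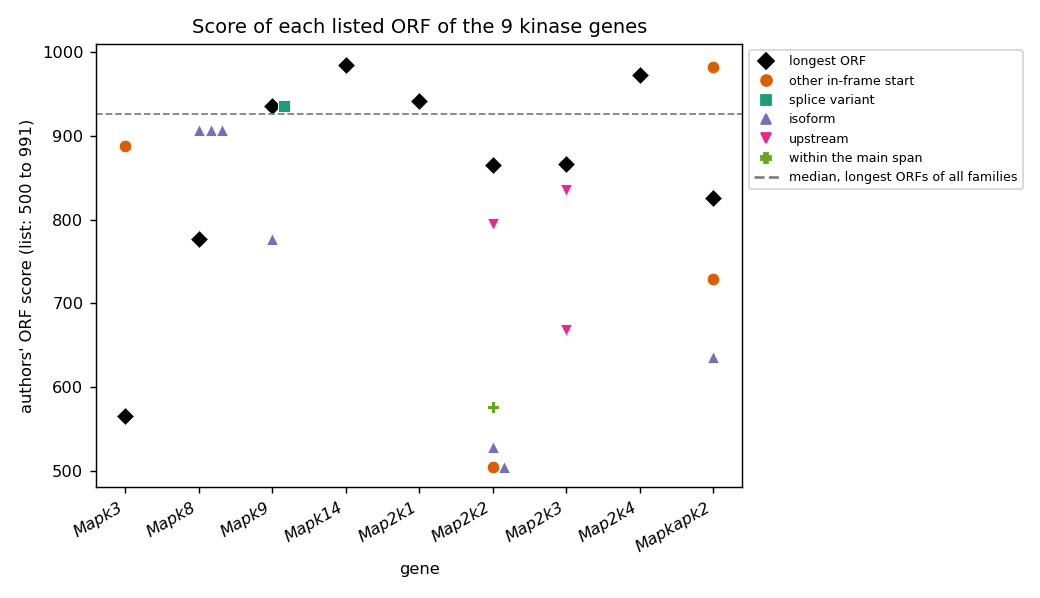
Authors' score (vertical axis) of each of the 25 ORFs by gene (horizontal axis), with symbols for the class of the ORF and a dashed line at 926, the median of the longest ORFs of all families. The longest ORF lies below another ORF of its gene in Mapk3, Mapk8 and Mapkapk2, and equal scores of a gene are drawn side by side.

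The MAP kinases come first. Mapk14 encodes p38 alpha, the p38 form most studied in inflammation. Its only ORF had 360 residues in 12 coding exons, lay at chromosome 17, 28828685 to 28883283 on the plus strand (mm9, counted from 1, as all positions here), and scored 985. That score was above those of 87.5% of longest ORFs, and was the highest of the 25. Its leader, the transcript before the start codon, had 398 bases and was the longest of the 9 genes.

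Mapk3 encodes ERK1, the MAP kinase of growth factor and Toll-like receptor signals. It had ORFs of 380 and 342 residues with a common stop, on 1 listed transcript. The longer one (chromosome 7, 133903160 to 133908359, plus strand) scored 565, above only 4.99% of the longest ORFs of all families. The shorter one started 38 codons further in, at 133903274, and scored 888. The ORF with the low score began 20 bases from the transcript's 5′ end, and the ORF with the high score 134 bases from it. A leader of 20 bases or fewer was listed for 3.52% of longest ORFs.

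Mapk8 and Mapk9 encode JNK1 and JNK2, kinases that phosphorylate the transcription factor c-Jun. Both genes are known to be spliced into forms that differ in an internal stretch of the kinase domain and in the length of the C terminus, and ORFs that differ in both ways were listed for both genes. Mapk8 had 4 ORFs with a common start on the minus strand of chromosome 14. The ORF of 427 residues (34195360 to 34224163) scored 777, and 3 ORFs of 384 residues (34195494 to 34224163) scored 907 each. Mapk9 had 3 ORFs with a common start on the plus strand of chromosome 11. Those of 423 residues, of which there were 2 (49667763 to 49696791), scored 936 each, and one of 340 residues (49667763 to 49696660) scored 777. The long C terminus thus had the lower score in Mapk8 and the higher score in Mapk9. The 340-residue ORF of Mapk9 also lacked internal exon sequence, so its score does not set the C termini alone side by side.

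The internal difference was the exchange of one 72-base exon for another of the same length, at codons 206 to 230 of the ORF in both genes. In Mapk8 the exon nearer the start, at 34203859 to 34203930, was used in 1 of the 4 ORFs, one of 384 residues. The exon 359 bases beyond it, at 34203428 to 34203499, was used in the other 3, the 427-residue ORF included. In Mapk9 the nearer exon (49687338 to 49687409) was used by one of the 423-residue ORFs and the farther one (49687766 to 49687837), 356 bases beyond it, by the other. No listed ORF of either gene used both exons, and the 340-residue ORF of Mapk9 used neither. Such an exchange, in which 2 ORFs of a family have the same start and stop and all coding exons alike but 1 of equal length, was found in 17 of the 5869 families with several ORFs (0.290%). Mapk8 and Mapk9 were among these 17, and Tmem87b was the only other family with exchanged exons of 72 bases.

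The C-terminal difference was a shift of 5 bases at the last coding exon, again in both genes. The 384-residue ORFs of Mapk8 took in 5 more bases at the 5′ end of that exon (34195506 to 34195510) and ended 17 bases into it, stop codon included. The 427-residue ORF read 146 bases of it in another frame. The 340-residue ORF of Mapk9 likewise took in 5 more bases (49696644 to 49696648) and ended 17 bases into the exon, where the 423-residue ORFs read 143 bases. The 340-residue ORF also lacked 123 coding bases upstream of that point, namely the 72-base exon and part of the next one, which had 132 bases in place of 183. One 384-residue ORF of Mapk8 differed from another only in where it placed 2 junctions, by 2 and by 4 bases, with no change in length. Whether both placements read the same letters was not tested.

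**Figure D2:**
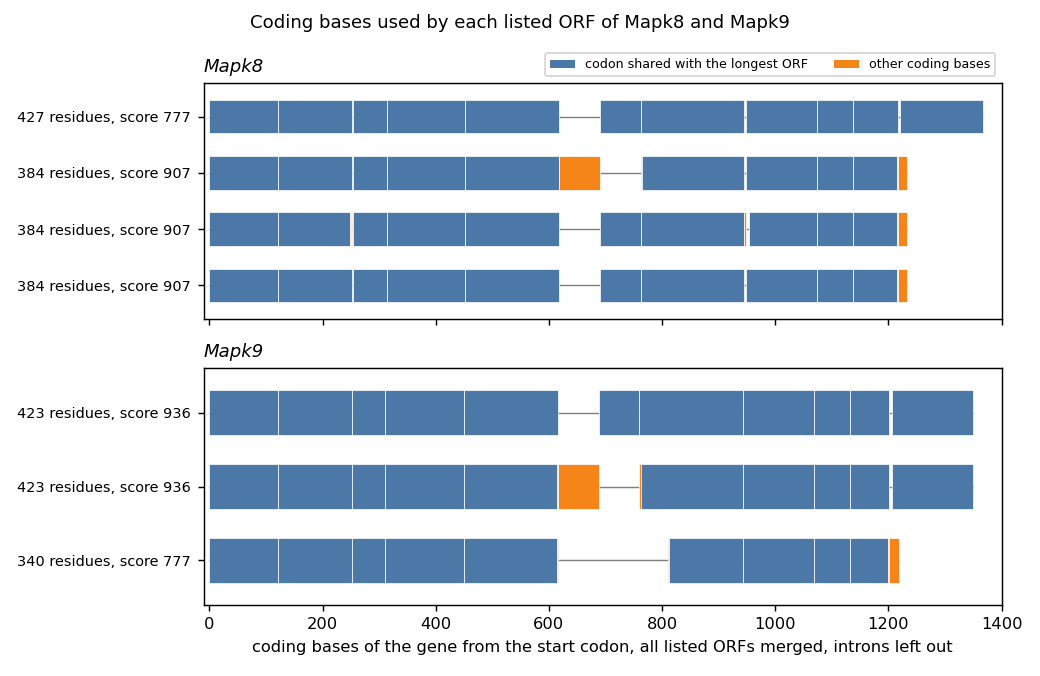
Coding bases used by each listed ORF of Mapk8 (4 ORFs) and Mapk9 (3 ORFs), along all coding bases of the gene merged from the start codon (horizontal axis, bases, introns left out). Blue bars are codons shared with the top ORF of the panel, orange bars are other coding bases, and thin lines are bases that the ORF skips. The exchanged 72-base exon is the large orange bar, and the orange ends on the right are the last 17 bases of the forms with the short C terminus.

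Splice forms with the same start and stop always had the same score. This held for 4 of 4 such pairs in the 9 genes and for 3685 of 3685 in the whole list (100%). Of pairs with a common start and another stop, none of 7 had equal scores in the 9 genes, and 2.62% of 1105 did in the whole list. The score thus set no JNK form with one 72-base exon above the same form with the other.

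The MAP2 kinases among the 9 genes divided into genes with 1 ORF and genes with upstream ORFs. Map2k1 encodes MEK1, which activates ERK, and had 1 ORF of 393 residues (chromosome 9, 64034492 to 64101099, minus strand) with a score of 942. Map2k4 encodes MKK4, an activator of JNK, and had 1 ORF of 397 residues (chromosome 11, 65504193 to 65601746, minus strand) with a score of 973. Both scores exceeded the median of 926, and the leaders had 313 and 53 bases.

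Map2k2 encodes MEK2, the close relative of MEK1, and had the most ORFs of the 9 genes, with 6. Its longest ORF had 400 residues (chromosome 10, 80568892 to 80586475, plus strand), 200 leader bases and a score of 865. An upstream ORF of 4 residues at 80568850 to 80568864 scored 795 and ended 27 bases before that start. A start 1 codon further in gave an ORF of 399 residues that scored 504, near the lowest score of the list. ORFs of 276 and 175 residues, scoring 528 and 504, lay on a second transcript whose seventh coding exon had 86 bases in place of 214. The loss of 128 bases shifted the frame, and both ORFs stopped at 80583830, 133 bases before the last exon junction. The 175-residue ORF began inside the 276-residue one, in its frame, at the first base of the 147-base exon. The sixth ORF, of 37 residues and in another frame, began in the second coding exon at 80571594 and scored 576. Thus 4 of the 6 scores lay between 504 and 576, and only the longest and the upstream ORF scored higher.

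Map2k3 encodes MKK3, an activator of p38. It had a longest ORF of 347 residues (chromosome 11, 60745725 to 60765349, plus strand) with a score of 866, and upstream ORFs of 28 and 14 residues that share a stop codon at 60745698. The 14-residue ORF (from 60745654) scored 835 and the 28-residue ORF (from 60745612) scored 668. Both ended 26 bases before the start of the kinase ORF, close to the 27 bases in Map2k2. Over 2674 upstream ORFs whose listed transcript holds the start of the longest ORF, the median distance was 117 bases, and 15.9% lay within 30 bases. The listed transcript of the Map2k3 upstream ORFs has a 545-base exon where that of the kinase ORF has separate exons of 128 and 78 bases, so the listed models differ beyond the leader. Upstream ORFs, counting any that overlap the start of the longest ORF, were found in 2 of the 9 genes, both MAP2 kinases, beside 20.2% of all families.

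Mapkapk2 encodes MK2. It had 3 starts, on the minus strand of chromosome 1. The ORF from 132994102 had 386 residues and scored 826, and that from the next codon had 385 residues and scored 729. A start 37 codons further in, at 132993991, gave an ORF of 349 residues that scored 982. All 3 ended at 132951669. As in Mapk3, the ORF with the far higher score started over 100 bases from the transcript's 5′ end, at 129 bases. The longest ORF had a leader of 18 bases. Whether the length of a leader bears on the score was not tested. The score of 982 was above 85.2% of the longest ORFs of all families, and that of 826 above 29.7%. An isoform of 205 residues from the start at 132993991 scored 636. Its transcript kept the intron after the 76-base exon, and the ORF ended 4 bases into it, stop codon included, 638 bases ahead of the last junction.

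**Figure D3:**
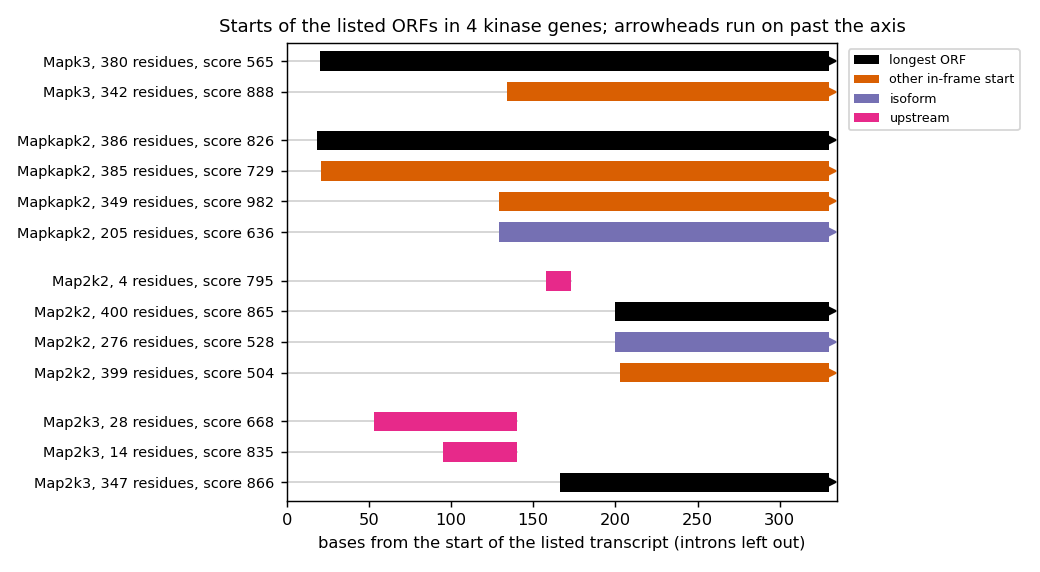
First bases of the listed transcripts of Mapk3, Mapkapk2, Map2k2 and Map2k3 (horizontal axis, bases from the transcript's 5′ end, introns left out), with each ORF that starts in the first 203 bases as a bar coloured by class. In Mapk3 and Mapkapk2 the ORFs with the highest scores, 888 and 982, begin at 134 and 129 bases, well inside the longest ORF, and in Map2k2 and Map2k3 the upstream ORFs end just before it.

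Mapk3, Map2k2 and Mapkapk2, 3 of the 9 genes, had another in-frame start, beside 23.0% of all families. Of the 4 ORFs from such starts, those of 342 residues in Mapk3 and 349 residues in Mapkapk2 scored above the longest ORF of their gene. So did 42.7% of the 3406 in the list. The other 2, in Map2k2 and Mapkapk2, began at the codon right after the start of the longest ORF and scored below it. Only 2.55% of the 2862 in-frame starts inside a longest ORF lay exactly 1 codon in, and their median was 26 codons. The longest ORF did not have the highest score in 3 of the 9 genes, Mapk3, Mapk8 and Mapkapk2, beside 19.8% of all families. A splice variant or isoform was listed in 4 genes, Mapk8, Mapk9, Map2k2 and Mapkapk2, beside 23.1%. With 9 genes, 1 gene more or fewer moves such a share by more than 10 points, so none of these counts is read as a difference from other families. Of the 8 splice variants and isoforms, the 3 of Map2k2 and Mapkapk2 named above had stops over 50 bases before the last exon junction. Such a position is known to mark transcripts for nonsense-mediated decay. The Map2k2 ORFs among these 3 share a transcript and a stop, so they are not separate cases. Of the 3335 splice variants and isoforms in the list, 13.5% had such stops.

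The exon plan of the kinases was shared in pairs. Exon lengths were compared after the ORFs had been seen. The longest ORFs of Mapk8 and Mapk9 had 8 internal coding exons in a row of equal length, of 130, 59, 139, 166, 72, 183, 125 and 64 bases, and no other family in the list had that run. Those of Map2k1 and Map2k2 had 5, of 211, 147, 78, 52 and 125 bases, followed by exons of 202 and 214 bases and then 65, 62 and 46 bases in both. Map2k3 and Map2k4 shared 3, of 52, 128 and 78 bases, a run found in the longest ORF of no other family. How many families share any run of 3 lengths was not counted. Of the 36 pairs among the 9 genes, the remaining ones shared at most 2 in a row, of 130 and 59 bases in Mapk14 and each JNK gene. Outside the 9 genes, Mapk14 shared 6 with Mapk13, another p38 gene, and Mapkapk2 shared 4 with Mapkapk3, which encodes the related kinase MK3. All 9 genes had at least 5 internal coding exons. A run of 5 or more was shared with another family by 6 of them, beside 19.7% of the 6338 families with as many exons. Mapk8 and Mapk9 were counted through each other, as were Map2k1 and Map2k2. The count thus depends on related genes having been chosen together, and it is not read as a difference from other families.

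**Figure D4:**
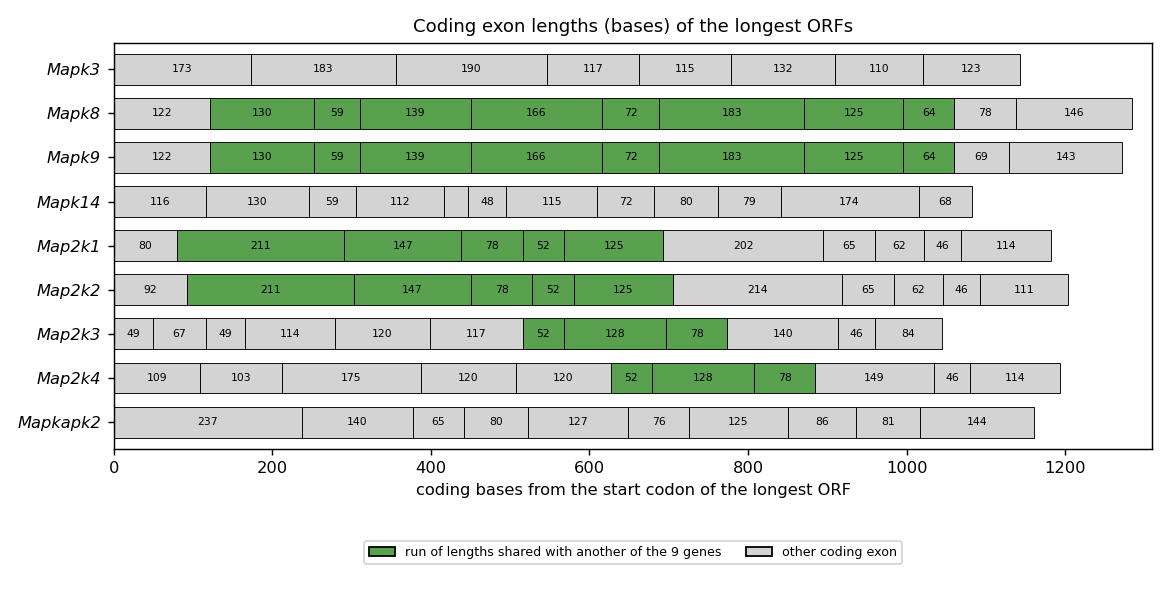
Coding exons of the longest ORF of each of the 9 genes, drawn to scale from the start codon (horizontal axis, coding bases) with exon lengths in bases. Green marks the runs of equal lengths that 2 of the 9 genes share, 8 exons in Mapk8 and Mapk9, 5 in Map2k1 and Map2k2 and 3 in Map2k3 and Map2k4.

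Among 67 other genes of the pathway, 51 were listed. Of these, 14 had an upstream ORF, 15 another in-frame start, 10 a splice variant or isoform and 19 a single ORF. Over all families the shares were 20.2%, 23.0%, 23.1% and 43.7%, in that order. The lists below are small, and none of their counts is read as a difference from other families. Among the MAP3 kinases, which act at the top of the cascades, 7 of 18 listed genes had upstream ORFs, beside 20.2% of all families. These 7 included Taok1 with 5 and Map3k3 and Taok3 with 4 each. Among the 5 other MAP kinases listed, Mapk6, which encodes ERK3, had 3 upstream ORFs and Nlk had 1, while Mapk7 and Mapk13 had a single ORF each. Neither of the 2 other MAP2 kinases listed, Map2k5 and Map2k7, had an upstream ORF, and no line carried the name Map2k6. Of 9 other kinases activated by MAP kinases, Mapkapk3 had 2 upstream ORFs, of 4 and 16 residues with scores of 987 and 810, and Mknk1 had 1. The MAPK phosphatases, which remove the phosphates that activate MAP kinases, had upstream ORFs in 1 of 8 listed genes, Dusp16 with 2. Scaffolds and adaptors had them in 2 of 9, Ksr1 and Tab2 with 1 each. The one in Ksr1 had 313 residues and spanned 78858343 to 78959781 on chromosome 11. It was counted as upstream only because it ended before the longest listed Ksr1 ORF, of 565 residues. Whether it is part of the coding sequence of the Ksr1 protein itself was not tested. No line carried the names Mapk4, Mapk10, Mapk11, Mos, Map3k9, Map3k10, Rps6ka6, Dusp8, Dusp9, Mapk8ip1 or Mapk8ip2.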

How the data were processed

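Per the labels' protocols, size-selected ribosome-protected RNA was sequenced, with rRNA removed in ways that differed between libraries. Per the submitters' processing notes, the build was mm9, and Bowtie2 and TopHat are named with no version. No ORF caller is given in the sources used here, and no transcript annotation. The authors deposited 1 list with exon blocks, the ORF span and a score per ORF. The 9 genes and the gene lists were chosen with earlier results of these data known.

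Family, residues and position came from each line, and the named length matched the coding bases in 22367 of 22367 ORFs (Python 3.11.15, matplotlib 3.10.9). The longest ORF of a family was its main ORF (ties went to the higher score). The remaining ORFs were classed by shared start, shared stop, shared in-frame codons or position against it. The class rules were tested on simulated data. No test between groups or gene lists was run. The planned comparison with RefSeq protein lengths was not run, since no protein table was used here. The RefSeq table (GRCm38.p6) served for names only. All ORFs of the 9 genes are reported. Pathway genes were named by list, up to 4 with the most upstream ORFs and up to 3 with no line; a few values are not reported here. Those with a single ORF and those likest in exon lengths were named after their values were seen, as was Tmem87b. Alternatives were score and length minimums, 1 ORF per stop codon, the ORF of highest score as main, and 2 definitions of upstream.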

Additional observations from a re-analysis of the deposited data

How the results depend on the processing

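The counts for the 9 genes were computed again under 8 alternatives, 35 values in all, of which 23 stayed within 1.5 times the reported count and 12 did not. With a score of 700 or more, 1 gene had another in-frame start and 2 had a splice variant or isoform. With 900 or more, 9 ORFs were left, and 0 genes had an upstream ORF, 0 another in-frame start and 2 a variant or isoform. Upstream ORFs were found in 1 gene with at least 10 codons and in 0 with at least 30. Both counts follow from the 4, 14 and 28 residues of these ORFs. With 1 ORF per stop codon, 16 ORFs were left and 0 genes had another in-frame start, which follows from that setting. The count of genes whose longest ORF did not score highest was chosen after seeing the data. It fell from 3 to 0 with a score of 900 or more and to 1 with 1 ORF per stop codon. Both falls follow from the settings. The score minimum takes out those longest ORFs, which scored 565, 777 and 826. Keeping 1 ORF per stop codon takes out the in-frame starts of Mapk3 and Mapkapk2. With the ORF of highest score taken as main, the 3 counts of genes stayed at 2, 3 and 4. No paired analysis was possible because the list has no value per library, and for the same reason no library could be left out. Depth is unknown, so an ORF with no line may have had too few footprints to be listed.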
